A study of Mus musculus with 9 samples.

Results

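The V gene portion of the mouse TCRα/δ locus lies at chr14:53046639-54602101 (mm9) and runs over 1.56 Mb from its distal end, at low coordinates, to the end nearest the J segments. All peaks of 5 ChIP-seq lists that overlap this interval were taken as its members, without regard to their score or to the other lists. They number 462 of the 190262 peaks in the 5 lists. CTCF gave 94 peaks in pre-B cells, and its list from IL7-cultured pro-B cells gave 143. Rad21, a subunit of cohesin, gave 40 peaks in pre-B cells, 33 in DN (CD4-CD8-) thymocytes and 152 in DP (CD4+CD8+) thymocytes. The DN list is the shortest, with 9701 peaks against 30488 to 71080 in the others, and ends at a higher score, so that a site without a DN peak may still be bound. Peaks that overlap each other were joined into 193 sites.

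All mice were C57BL/6 and lacked RAG, so that V genes are not joined to J segments by recombination. Pro-B cells were from RAG1-/- bone marrow after 7 days with IL7, and pre-B cells were from RAG-/- mice that carry a rearranged IgM heavy chain transgene. DN thymocytes were from Rag1-/- mice, and DP thymocytes were from Rag1-/- mice with a rearranged TCRβ transgene. Bone marrow donors were 6 to 14 weeks old and thymus donors 4 to 8 weeks old. Each antibody and cell type has 1 library, both pre-B libraries share an input, and no test between cell types was possible. Intervals are 95% and cover counting only. They treat each peak, site or gene as separate, although many lie in repeated sequence. CTCF in thymocytes and in uncultured pro-B cells was not analysed here, so "B-lineage CTCF" below means a peak in either of the 2 CTCF lists.

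CTCF is a zinc finger protein that binds a long asymmetric DNA motif, and cohesin is the ring-shaped complex that holds chromatin loops. Cohesin is known to halt at CTCF sites, preferentially those whose motif points toward the incoming ring, and it is also found at active promoters and enhancers without CTCF. The Trav genes encode the variable domain of the TCRα chain, and Trdv genes that of the TCRδ chain, with some genes (named dv) usable by both. Rearrangement of Trav genes takes place in DP thymocytes, while DN thymocytes rearrange Trdv genes. In C57BL/6 mice the middle of the array consists of large duplications, and gene symbols carry the letters d or n in the copies farther from the J segments and no letter in the copy nearest to them.

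The sequences that recur most in the results are the CTCF motif matches in front of V genes. A 20-base CTCF matrix was built from 6511 pre-B CTCF peaks outside chromosome 14, starting from the 12-base de novo consensus that the study lists, and both strands were searched. In the 400 bp before the annotated gene start, 57 of 112 V genes held a match. Among 37196 windows of the same length before other annotated gene starts, 1061 (2.85%) did. The window was chosen after the peaks had been seen. All 57 matches pointed into the gene, toward higher coordinates and thus toward the J segments, whereas 59.4% of the matches in the other windows pointed into their gene. Every one of the 57 lay in a CTCF peak of the pro-B list, 50 lay in a CTCF peak of the pre-B list 51 in a DP Rad21 peak, 16 in a pre-B Rad21 peak and 13 in a DN Rad21 peak. Relative to the gene start their centres lay from -387 to -63 bp, with a median of -179 bp. Many of these genes are duplicates of each other, so the matches are not independent. The best match of each family of 3 or more genes that has one is shown with 5 bases on each side, read 5′ to 3′ on the plus strand of mm9, with the 20 matched bases in capitals.
Trav6d-6, chr14:53441457-53441486: agctcCTGTCCACCAGGGGGCGCAGatgcc
Trav9d-2, chr14:53511552-53511581: ctcatGTGGCCTCCAGAGGGCGCTGctgca
Trav7d-4, chr14:53389259-53389288: atcatGAGCCCACAAGGTGGCAGTGtttta
Trav12d-1, chr14:53464039-53464068: gaaggGAAACCAGCAGAGGGCGCTGcccct
Trav5n-4, chr14:53932347-53932376: ggaatGCAACCACAAGGTGTCAGCAgatct
Trav3d-3, chr14:53592032-53592061: agaagCTGTCCACTAGGGGGCAGAGcatca
Trav8d-2, chr14:53661872-53661901: ctatgCTCACCACTAGATGGCAGTGcctct
Trav13, Trav4, Trav14 and Trav15, the other families of this size, held no match in this window in any of their 10, 8, 7 and 6 genes.

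Along its length the V portion was not evenly covered. The most distal 0.2 Mb, which holds 4 V genes from Trav1 to Trav5-1, had 3 pre-B CTCF peaks, 7 pro-B CTCF peaks, no pre-B Rad21 peak, 1 DN Rad21 peak and 6 DP Rad21 peaks. The next 0.2 Mb had 10, 18, 2, 3 and 10 peaks in the same order. Between 0.4 and 1.4 Mb pre-B CTCF had 14 to 18 peaks per bin, pro-B CTCF 21 to 24 and DP Rad21 22 to 25. Pre-B Rad21 had 8 to 10 in the third to the fifth bin and 5 in each of the next pair, and DN Rad21 had 4 to 7. The last bin, 0.155 Mb long with 7 genes from Trav18 to Trdv2-2, had no peak of pre-B CTCF or DN Rad21, 1 of pre-B Rad21 and 8 of pro-B CTCF, but 16 of DP Rad21. Per Mb, that last bin held 103 DP Rad21 peaks, against 110 to 125 in the 5 bins before it. The J-proximal end was thus the stretch where the DP Rad21 list and the pre-B CTCF list differed most.

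**Figure D1:**
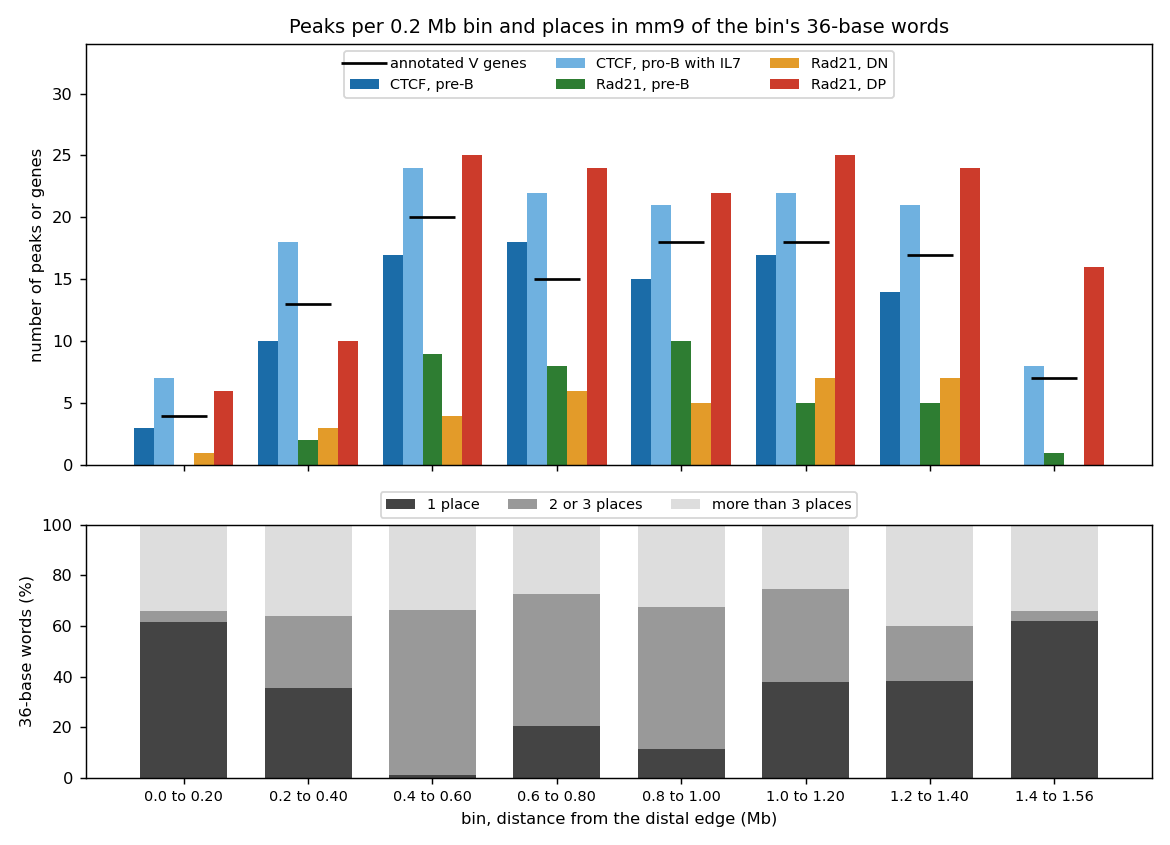
The upper panel shows the number of peaks of each of the 5 lists (bars) and of annotated V genes (black lines) in each 0.2 Mb bin from the distal edge, with a shorter last bin of 0.155 Mb. The lower panel shows the percentage of the 36-base words starting in each bin that occur at 1, at 2 or 3, or at more than 3 places of mm9. The first bin holds 0 to 7 peaks of each list, and in the last bin DP Rad21 has 16 peaks while pre-B CTCF and DN Rad21 have none.

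The middle of the V portion is repeated, and reads with up to 3 equally good places were kept at each of them. The read length is not given in the sources used here, so words of 36 bases were assumed to stand for reads. Of the 36-base words starting in the first bin, 61.7% occur once in mm9, but in the third bin 0.933% do and 65.4% occur at 2 or 3 places. In the last bin 62.0% occur once. Read counts in peaks of the middle bins may therefore rest on the same reads counted at several copies, and the part this plays in the counts was not tested. In the first and last bins 33.9% of the words occur at more than 3 places, and in the others 25.4 to 40.0%. Reads with more than 3 best places were not kept, so a stretch or gene without a peak may still be bound.

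Most lists left long stretches without a peak at the ends. For pre-B CTCF the longest were the 120913 bp from the distal edge to the first peak and the 175542 bp from the last peak, near Trav17, to the J-proximal edge. Pre-B Rad21 began 256718 bp from the distal edge and ended 100558 bp from the other. DN Rad21 had 1 peak in the first bin, near Trav2, and none for the next 243936 bp, until Trav9d-1. DP Rad21 began 600 bp from the distal edge, at Trav1, and ended 5073 bp from the J-proximal edge; its longest interval, of 115771 bp, lay between Trav1 and Trav2. Just outside the distal edge the nearest DP Rad21 peak was 87804 bp away at the 97.9th percentile of its list by score, while the first peak inside was at 5.94%. Just outside the J-proximal edge the nearest DP Rad21 peak was 8721 bp away at 72.2%, and the last inside was at 38.8%. For pre-B CTCF the nearest peaks outside lay 61679 bp and 77140 bp from the edges, at 5.64% and 78.5% of the list, and the outermost peaks inside were at 32.1% and 69.0%. For pro-B CTCF they lay 61662 bp and 18120 bp away. For pre-B Rad21 they lay 82940 bp and 77251 bp away, and for DN Rad21 87980 bp and 77426 bp away.

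The lists also differed in how high their members ranked. The rank of a peak is the percentage of its own list with a lower score, so that it does not compare heights across libraries. The median rank of the pre-B CTCF members was 72.8% (61.5 to 81.8%), and 19 of 94 were at 90% or higher. Pro-B CTCF members had a median of 70.2% (64.7 to 77.5%) and DP Rad21 members one of 62.5% (54.5 to 66.7%), with 13 at 90% or higher in each. The DN Rad21 members were near the middle, at 54.9% (40.1 to 70.3%). Pre-B Rad21 members had a median of 24.7% (15.1 to 34.5%), the highest was at 69.3%, and none reached 90%. Pre-B Rad21 thus had the lowest median. The intervals treat peaks of 1 library as separate and do not test a difference between lists. Of the 40 pre-B Rad21 members, 15 held no word found once in mm9. With each list limited to its 9701 highest-scoring peaks, the length of the DN list, 3 pre-B Rad21 peaks were left in the V portion, against 33 for DN Rad21, 50 for DP Rad21, 43 for pre-B CTCF and 25 for pro-B CTCF.

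Within the lists, ranks also varied along the locus. The median rank of pre-B CTCF peaks was 52.8% in the first bin and 40.7% in the second, 87.1% in the third, 79.8% in the fourth, 81.8% in the fifth, 63.8% in the sixth and 76.0% in the seventh. For DP Rad21 the first bin had a median of 13.7%, and the other 7 bins had medians between 57.5% and 66.3%. For pro-B CTCF the first bin had a median of 44.9% and the last one of 34.7%, while the bins between had medians of 68.0 to 78.7%. DN Rad21 had its highest medians in the fifth bin (83.3%, 5 peaks) and seventh (73.5%, 7 peaks). The first bin thus had low medians for DP Rad21 and, below its other bins but the last, for pro-B CTCF, and the only DN Rad21 peak there was at 0.186%; pre-B CTCF, with 3 peaks, was lower in the second bin than in the first.

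**Figure D2:**
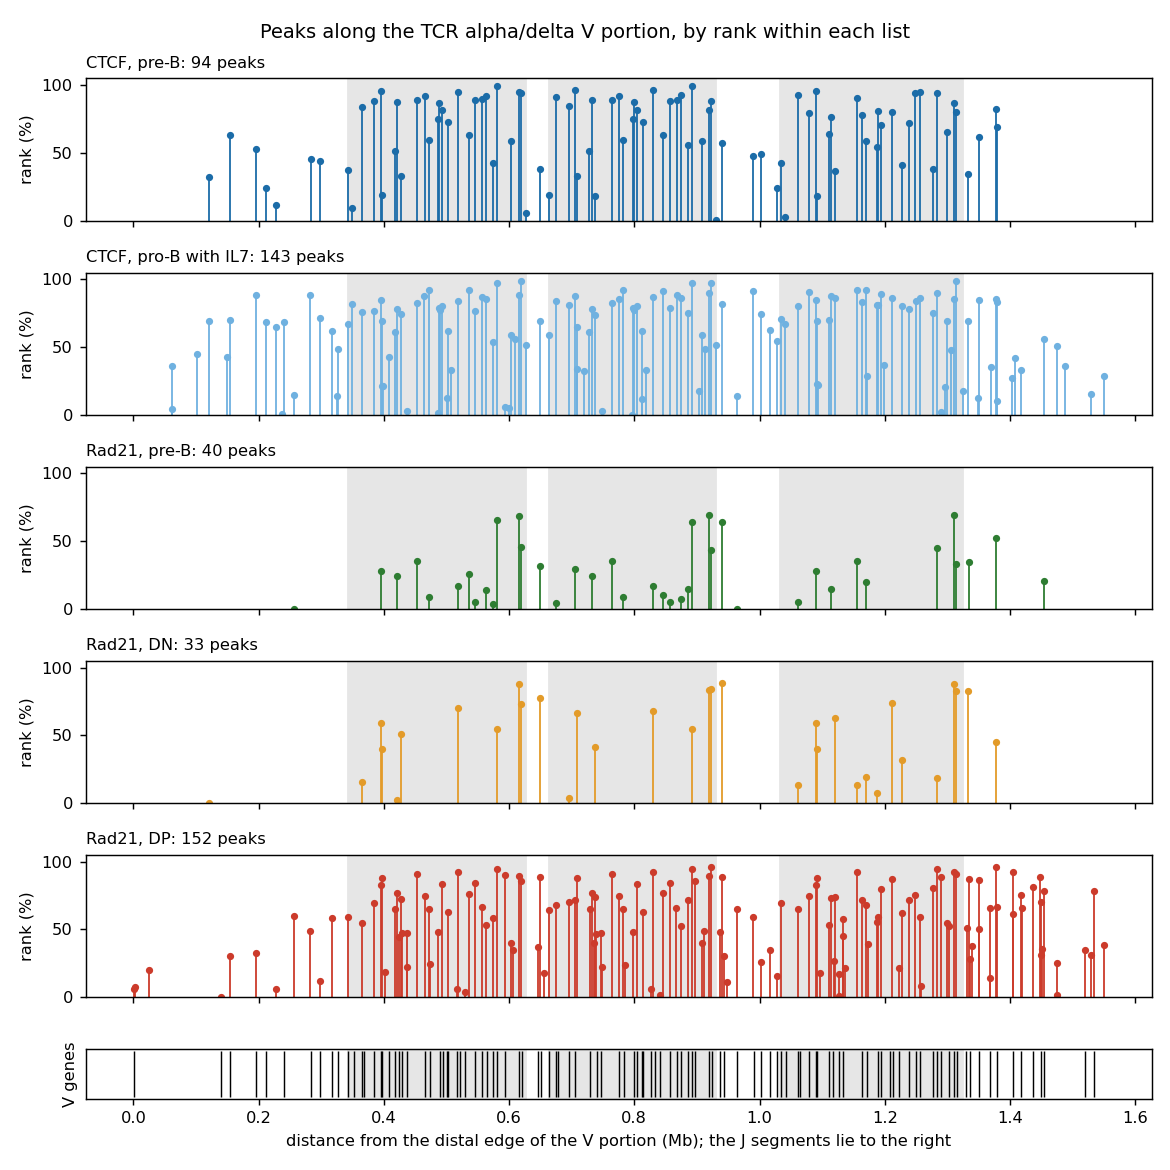
Each vertical line with a point is a peak at its distance from the distal edge in Mb, and its height is the percentage of its own list with a lower score. Grey bands mark the spans of the 3 copies of the repeat and the lowest panel the V gene starts. The 3 bands hold similar series of pre-B CTCF ranks, and DP Rad21 peaks continue to the right edge.

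The strongest pre-B CTCF peak of each bin lay at a V gene. It was at the start of Trav3-1 in the first bin (63.4%), Trav6d-6 in the second (95.7%), Trav6d-7 in the third (99.5%), Trav6n-6 in the fourth (96.3%), Gm10904 in the fifth (99.4%) and Trav6-6 in the sixth (95.9%). In the seventh bin it lay 436 bp before Trav4-4-dv10 (95.3%). Of these 7, 5 thus overlapped the start of a Trav6 gene or of Gm10904, which lies where a Trav6 gene lies in the other copies. They are not 5 separate sites, since those at Trav6d-6, Trav6n-6 and Trav6-6 are copies of each other, as are those at Trav6d-7 and Gm10904. All 7 were also peaks in the pro-B CTCF and DP Rad21 lists. The strongest DP Rad21 peaks lay elsewhere in most bins. They overlapped the starts of Trav5-1 (32.8%), Trav11d (88.2%), Trav6d-7 (94.6%) and Trav18 (92.0%) in bins 1, 2, 3 and 8. In bins 4 and 6 they lay in intergenic DNA, 11577 bp before Trav9n-2 (91.1%) and 8716 bp before Trav9-2 (92.7%). In bins 5 and 7 they lay 1566 bp before Gm16837 (95.7%) and 1892 bp before Trav17 (95.8%).

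Median spacing between neighbouring peaks was 11092 bp (9859 to 15335 bp) for pre-B CTCF, 8758 bp (6696 to 10690 bp) for pro-B CTCF and 7749 bp (6324 to 10191 bp) for DP Rad21. It was 24994 bp (17522 to 30633 bp) for pre-B Rad21 and 28383 bp (17034 to 34795 bp) for DN Rad21. These values follow the number of peaks in each list: with lists of equal length the order of the CTCF lists turned, to 21149 bp for pre-B and 32590 bp for pro-B.

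Periodicity was read against the DNA repeat itself. The most frequent distance between identical 36-base words of the V portion was 311135 bp, shared by 14489 word pairs. Of the pre-B CTCF peaks, 44 of 94 (46.8%) had another peak of the list within 500 bp of that distance. At the other 847 distances from 50 to 900 kb in steps of 1 kb, the median was 8 peaks and the highest 28. Pro-B CTCF had 66 peaks with a partner, against a highest of 50 elsewhere, pre-B Rad21 20 against 8, and DP Rad21 61 against 48. DN Rad21 had 8 of 33, and 1 other distance, 222 kb, also gave 8. In 4 of 5 lists the repeat distance thus had more partners than each other distance. Reads with 2 or 3 best places were kept at each, so reads from 1 copy can by themselves give peaks at this distance. At least 50% of the words lay at 2 or 3 places in 52 of 94 pre-B CTCF and 76 of 152 DP Rad21 members. The part this plays in the partner counts was not tested.

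**Figure D3:**
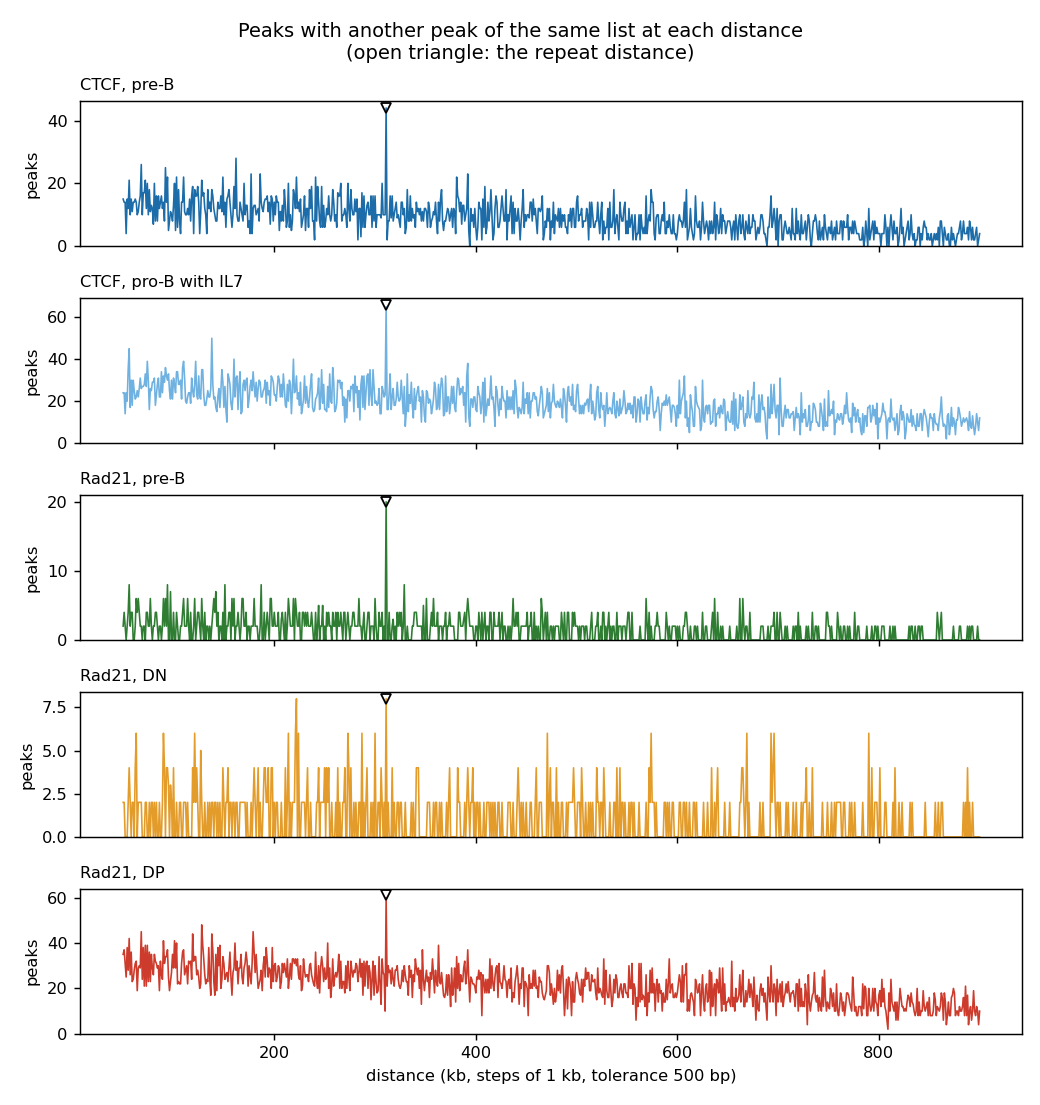
For each list, the line gives the number of peaks that have another peak of the same list at the distance on the x axis (kb, tolerance 500 bp), and the open triangle marks the repeat distance. In every list but DN Rad21 the line stands highest at the triangle, with 44 pre-B CTCF peaks and 61 DP Rad21 peaks there. Peaks in copies of the repeat can rest on the same reads.

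To follow single sites through the repeat, each of the 193 sites was aligned to the V portion at 90% identity or more over at least 50% of its length. This gave 34 sets of 3 places, 1 in each copy, which span chr14:53388765-53673845, chr14:53710252-53976904 and chr14:54080112-54371121. Within a set the first and second copies lay 303059 to 321484 bp apart with a median identity of 99.8%. The second copy and the third lay 369862 to 394222 bp apart with a median identity of 96.9%, and the first copy and the third had 97.3%. Words found at 2 or 3 places made up a median of 88.0% of the first copy's sites, 85.1% of the second's and 38.5% of the third's, so more of the third copy's sequence was its own.

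CTCF calls were largely repeated from copy to copy. Pre-B CTCF was called in at least 1 copy of 19 sets and in all 3 copies of 18 (94.7%, 74.0 to 99.9%). Pro-B CTCF was called in all 3 copies of 22 of 28 sets and DP Rad21 in all 3 of 23 of 26 (88.5%, 69.8 to 97.6%). Pre-B Rad21 was called in all 3 copies of 6 of 12 sets (21.1 to 78.9%) and DN Rad21 in 6 of 13 (46.2%, 19.2 to 74.9%). In pre-B cells, 5 of the 6 incomplete Rad21 sets were called in the first and second copies and not in the third. In these 5, words found once made up 0.806 to 5.65% of the first and second copies and 5.57 to 47.6% of the third. The first and second copies can thus rest on the same reads, and their calls are not separate. In DN thymocytes, 4 of the 7 incomplete sets were called in the third copy alone. Scores of the first and second copies differed by 1% or less in 4 of 19 sets for pre-B CTCF and 9 of 23 for DP Rad21. For example, words found once made up 0.00% of both copies before Trav9d-2 and Trav9n-2, before Trav4d-3 and Trav4n-3, and at Trav6d-7 and Gm10904. DP Rad21 ranks there were 91.1%, 65.2% and 94.6%, the same in both copies. Calls in the first and second copies of such sets are not separate. Whether the same reads lay behind both was not tested.

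The sets with the highest summed DP Rad21 rank show what was shared, but their first and second copies can rest on the same reads. At the highest, the site at the start of Trav6d-7 had ranks of 99.5% (pre-B CTCF), 97.4% (pro-B CTCF), 65.3% (pre-B Rad21), 54.9% (DN Rad21) and 94.6% (DP Rad21). Its second copy, at Gm10904, had 99.4%, 97.4%, 64.5%, 54.9% and 94.6%, and the third copy, at Trav6-7-dv9, had 94.6%, 89.7%, 45.1%, 18.3% and 94.7%. The motif matches of the 3 are shown in capitals on the plus strand and had the same 20 bases.
Trav6d-7, chr14:53627173-53627202: actctCTGGTCACTAGAGGGCGCAGcatcc
Gm10904, chr14:53938359-53938388: actctCTGGTCACTAGAGGGCGCAGcatcc
Trav6-7-dv9, chr14:54329484-54329513: actttCTGGTCACTAGAGGGCGCAGcatcc
The second set lay 11420, 11402 and 8543 bp before Trav9d-2, Trav9n-2 and Trav9-2, and its match pointed the other way, away from the J segments. DP Rad21 ranks there were 91.1%, 91.1% and 92.7%, pre-B Rad21 ranks 35.7%, 35.7% and 35.5%, and DN Rad21 was called in the third copy alone, at 13.6%. The match is given on the minus strand and was the same in all 3.
Before Trav9d-2, chr14:53499840-53499869: aactcCTGAGCACTAGAGGGCAGTCaggag
The third set lay near Trav16d-dv11, Gm16837 and Trav8-2 and was called in all 5 lists in each copy. Here the match differed by T19C, counted from 1 at the 5′ end of the capitals, between the first copy and both others.
Before Trav16d-dv11, chr14:53665195-53665224: aaacaGGAACCACAAGGGGGAGGTAcccct
Before Gm16837, chr14:53968980-53969009: agacaGGAACCACAAGGGGGAGGCAcccct
In the third copy, chr14:54361122-54361151: agacaGGAACCACAAGGGGGAGGCAcccct
DP Rad21 ranks at these 3 places were 85.7%, 95.7% and 91.1%, and pre-B CTCF ranks 94.4%, 88.6% and 80.1%. The fourth set, 1558 bp after Trav13d-2, 1568 bp after Trav13n-2 and 2049 bp before Trav14-2, had DP Rad21 ranks of 92.5%, 92.2% and 87.3%; pre-B Rad21 was called at 16.8% in the first and second copies and was not called in the third. The fifth set, at the starts of Trav8d-2, Trav8n-2 and Trav8-2, was called in all 5 lists in each copy, with DN Rad21 ranks of 87.7%, 83.3% and 88.1% and pre-B Rad21 ranks of 68.5%, 69.3% and 69.0%. The sixth, at Trav11d, after Trav6n-6 and at Trav11, had DP Rad21 ranks of 88.2%, 88.0% and 88.2% beside pre-B CTCF ranks of 18.7%, 33.3% and 18.3%, with no pre-B Rad21 call. Of 21 sets with a match in any copy, 19 had one in all 3, and in 18 of these the 20 bases were the same in all 3.

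The study's ChIP primers for this locus match without mismatch in 2 of these sets. The first pair, gactggagcagctggtgcag and cactgaggcatcttcacctgtc, matched without mismatch at chr14:54285480-54285618, at the start of Trav3-3. A second pair, gactggagcagctggtgcgt and cggaggcatcttcagctgtg, matched without mismatch 291 bp before both Trav3d-3 and Trav3n-3. The pre-B Rad21 list has a peak at the 2 places of the second pair (5.46% in each) and none at Trav3-3. Pre-B CTCF was called at Trav3-3, Trav3d-3 and Trav3n-3, at 71.9%, 88.9% and 88.4%. The first pair also matched with 2 mismatches at Trav3-4 and with 3 just before Trav3-1, outside these sets. Both CTCF lists and DP Rad21 have peaks there. The third pair, cagagaaaacatgacctttgaagtat and gcgccctctagtgaccagaa, matched 71 bp before Trav6-7-dv9, and the fourth, aagaaagcatggcctttgaagtac and gcgccctctagtgaccagag, matched 133 bp before Trav6d-7 and Gm10904. All 5 lists have peaks at these 3 places.

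Overlap of the lists differed between the antibodies and cell types. Of the 94 pre-B CTCF members, 37 overlapped pre-B Rad21 (39.4%, 29.4 to 50%), against 63.5% of all pre-B CTCF peaks in the genome. The share in the V portion depended on the score limit: without scores below 100 it was 19 of 89 (21.3%, 13.4 to 31.3%), against 59.1% of the whole list, and with lists of equal length 3 of 43 (6.98%, 1.46 to 19.1%), against 67.8%. With all peaks, the share by bin was 0 of 3, 1 of 10, 9 of 17, 8 of 18, 9 of 15, 5 of 17 and 5 of 14. Those with Rad21 had a median CTCF rank of 88.9%, and those without one of 59.0%. Conversely, 37 of 40 pre-B Rad21 members overlapped pre-B CTCF (92.5%), where the whole list had 88.1%, and all 40 overlapped a B-lineage CTCF peak, against 92.4% of the whole list.

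Set beside thymocyte Rad21, the same CTCF peaks overlapped more often than the whole list did. Of the 94 pre-B CTCF members, 86 overlapped a DP Rad21 peak (91.5%, 83.9 to 96.3%), against 52.0% of the whole list, and 33 overlapped a DN Rad21 peak (35.1%, 25.5 to 45.6%), against 22.0%. All 40 pre-B Rad21 members overlapped DP Rad21 (67.3% of the whole list), as did 32 of 33 DN Rad21 members (94.5%). The 1 exception was the DN Rad21 peak near Trav2, the lowest of the DN members at 0.186%. All 33 DN Rad21 members overlapped B-lineage CTCF (98.4% of the whole list). All 94 pre-B CTCF members overlapped pro-B CTCF (96.0%), and 96 of 143 pro-B CTCF members overlapped pre-B CTCF (67.1%, 58.8 to 74.8%), against 58.6% of that list.

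For DP Rad21, 100 of 152 members overlapped B-lineage CTCF (65.8%, 57.7 to 73.3%), near the 69.2% of the whole list. Members with CTCF had a median rank of 71.6% and the 52 without it one of 34.9%. The share was 2 of 6 in the first bin, 10 of 10 in the second, between 62.5% and 72.0% in the next 5, and 6 of 16 (37.5%, 15.2 to 64.6%) in the last. DP Rad21 peaks without B-lineage CTCF thus made up the largest share in the outermost bins, which also hold the most words found once in mm9. The part that repeated sequence plays in this was not tested.

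Of the 193 sites, 21 were called in all 5 lists (10.9%, 6.86 to 16.2%), against 10.3% of 83461 sites in the genome. Another 52 were DP Rad21 peaks alone (26.9%, 20.8 to 33.8%), against 12.3%, and 33 were pro-B CTCF peaks alone (17.1%, 12.1 to 23.2%), against 30.1%. The share in DP Rad21 alone was 31 of 150 without scores below 100 (20.7%, 14.5 to 28%; genome 9.86%). With lists of equal length it was 11 of 76 (14.5%, 7.45 to 24.4%), an interval that holds the genome's 10.6%. At that length 2 of the 76 sites were in all 5 lists (2.63%), against 16.3%. CTCF of both B-lineage lists with DP Rad21 and no other Rad21 made up 38 sites (19.7%), against 3.10% of the genome's sites. None of the 21 sites called in all 5 lists lay in the first or last bin, 1 was in the second and 3 to 5 were in each of the others. The 12 with the highest pre-B CTCF rank were at Trav6d-7, Gm10904, Trav6-6, Trav6d-6, Trav8d-2, Trav6-7-dv9 and Trav9-1, downstream of Trav13n-2 and Trav13d-2, and upstream of Trav16d-dv11, Trav9-2 and Gm16837, with CTCF ranks from 88.6% to 99.5%. Of all 21 sites 18 held a motif match, and 15 of the 18 pointed toward the J segments; among these 12 sites the numbers were 12 and 11.

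The CTCF motif was found at most sites with B-lineage CTCF. Of 141 such sites 104 held a match (73.8%, 65.7 to 80.8%), against 50.4% of such sites in the genome, and 37 did not, among them 9 of the 11 called in pro-B CTCF and DP Rad21 and in no other list. Of the 94 pre-B CTCF members, 82 held a match (87.2%, 78.8 to 93.2%), against 60.8% of the whole list and 4.26% of sequences 2000 bp from the members. The shares were 72.7% for pro-B CTCF (50% of the list), 90% for pre-B Rad21 (57.8%), 81.8% for DN Rad21 (68.4%) and 53.9% for DP Rad21 (40.0%). For DN Rad21 the order turned at a stricter threshold, met by 1% of neighbouring sequences. There 8 of 33 members held a match, a lower share than 3379 of 9701 in the whole list. The other lists kept their order. None of the 52 sites called in DP Rad21 alone held a match, against 2.47% of such sites in the genome. By contrast, all 38 sites called in both CTCF lists and in DP Rad21 but in no other Rad21 list held one. In the genome 44.8% of such sites did. The exact interval for the 52 sites reaches 6.85%. It counts copies of the repeat as separate sites, as at Trav15d-1-dv6d-1 and Trav15n-1, and is therefore too narrow. The V portion held 113 matches in all, and 104 of them (92.0%, 85.4 to 96.3%) lay in a B-lineage CTCF peak, against 40.9% of 3377 matches on the rest of chromosome 14. All 48 that passed the stricter threshold, met by 1% of neighbouring sequences, lay in one, against 88.0%. Copies of the repeat are counted separately in these shares too.

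Matches in the members pointed mainly one way. Of the 82 in pre-B CTCF peaks, 70 pointed toward higher coordinates and 12 toward lower ones (14.6%, 7.80 to 24.2%), while 50.4% of matches in the whole list pointed toward lower coordinates. A plus-strand match of the reverse complement of the study's consensus was taken as pointing to higher coordinates. For DP Rad21 72 pointed toward higher and 10 toward lower coordinates, and for DN Rad21 23 and 4. Pre-B Rad21 had 27 and 9, and pro-B CTCF 82 and 22 (21.2% toward lower coordinates). By site, 1 match in each of bins 1, 2 and 8 pointed toward lower coordinates, and these 3 lay in pro-B CTCF peaks without pre-B CTCF; each of the other bins had 3 or 4. Of the 33 sites called in pro-B CTCF alone, 14 held a match, with 7 each way.

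**Figure D4:**
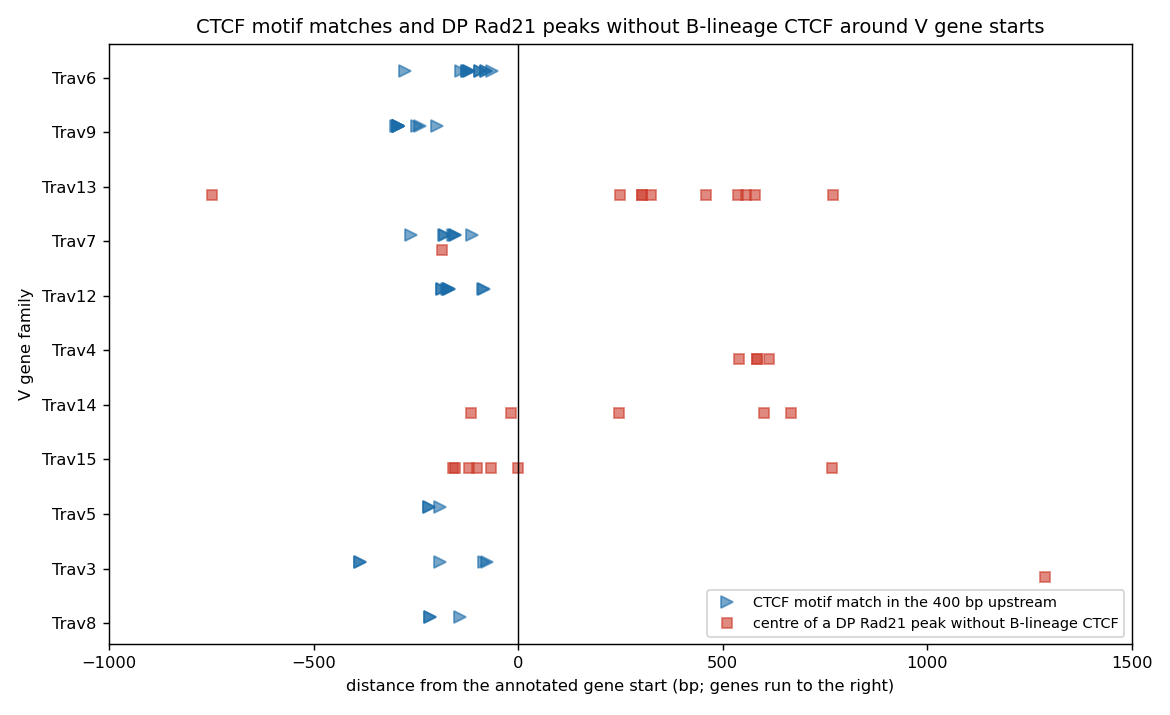
Triangles mark the centre of the CTCF motif match in the 400 bp before the start of each V gene that has one, and squares the centre of DP Rad21 peaks without B-lineage CTCF; the x axis is the distance from the annotated gene start in bp, and each row is a family. Triangles lie between -387 and -63 bp, and 1 Trav14 peak at 3636 bp is outside the axis.

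V genes carried most of the peaks. Windows from 2 kb before to 2 kb after the V genes cover 32% of the V portion, and 137 of the 193 sites (71.0%, 64.0 to 77.3%) overlapped them. Of the pre-B CTCF members, 50 lay over a gene start, none inside a gene, 17 upstream, 5 downstream and 22 farther than 2 kb away. Of the 52 sites called in DP Rad21 alone, 42 were at a V gene (80.8%, 67.5 to 90.4%), with 19 over a gene start and 18 inside the gene or over its end. Of the 33 sites called in pro-B CTCF alone, 12 were at a V gene (36.4%, 20.4 to 54.9%). Among the 112 V genes, 103 had a peak of any list in the gene or within 2 kb, 85 had B-lineage CTCF, 98 DP Rad21, 29 pre-B Rad21 and 26 DN Rad21. Of 37198 other annotated genes, which are longer (median 5418 bp against 518 bp), the shares were 54.6%, 51.0%, 37.0%, 33.2% and 13.6% in the same order. The counts depend on the limits: with lists of equal length 46 V genes had B-lineage CTCF, 3 pre-B Rad21 and 40 DP Rad21, and with 1 kb in place of 2 kb 19 had pre-B Rad21 and 13 DN Rad21. With 5 kb, 106 V genes had B-lineage CTCF and 106 DP Rad21. All 112 are on the plus strand; 106 carry a Trav or Trdv symbol, and 59 of these were renamed from a synonym.

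The families differed in which proteins were called beside their genes. All 11 Trav9, 8 Trav12, 6 Trav5 and 5 Trav3 genes had CTCF in both B-lineage lists and Rad21 in DP thymocytes. No pre-B or DN Rad21 peak was called within 2 kb of the 8 genes that carry a Trav12 symbol. Just past that limit, sites with a pre-B Rad21 peak lay 2452, 2450 and 2697 bp after Trav12d-1, Trav12n-1 and Trav12-1, at ranks of 24.0%, 24.0% and 15%, and the first of these also had a DN Rad21 peak (2.59%). The third copy of the site before Trav12d-2 and Trav12n-2 lies before Tcra-V8, a gene without such a symbol, and had a DN Rad21 peak (7.68%). At Trav12-3, for example, the ranks were 71.0% and 88.9% for CTCF in pre-B and pro-B cells and 79.6% for DP Rad21. All 8 Trav4 genes likewise had CTCF in both lists and Rad21 in DP thymocytes, and 5 had pre-B Rad21; 1 of them, Trav4-3, had a pro-B CTCF peak over the gene start, and the motif matches in CTCF peaks at these genes lay upstream, with centres from -1416 to -733 bp relative to the gene start. In the Trav8 family 3 of 5 genes (Trav8d-2, Trav8n-2 and Trav8-2) had peaks of all 5 lists, and Trav8d-1 and Trav8-1 had none within 2 kb; the nearest sites, called in both CTCF lists, lay 2291 and 2400 bp upstream. In the Trav6 family, the largest with 14 genes, 12 had pro-B CTCF, 9 pre-B CTCF, 8 DP Rad21 and 5 each of pre-B and DN Rad21. Of 10 Trav7 genes, 9 had pro-B CTCF and 9 DP Rad21, but 3 had pre-B CTCF.

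B-lineage CTCF was called within 2 kb of 5 of 10 Trav13, 1 of 7 Trav14 and 2 of 6 Trav15 genes, while Trav8 had it at 3 of 5. Differences between families were not tested. All 6 Trav15 genes, which include members shared with TCRδ, had a DP Rad21 peak over the gene start, none had pre-B CTCF or Rad21 in pre-B or DN cells, and 2 had a pro-B CTCF peak, at 3.07% in both. DP Rad21 ranks there were 47.7% at Trav15d-1-dv6d-1, 47.7% at Trav15n-1, 57.5% at Trav15-1-dv6-1, 3.80% at Trav15d-2-dv6d-2, 1.76% at Trav15n-2 and 21.2% at Trav15-2-dv6-2. Of 7 Trav14 genes, 4 had DP Rad21 and 1 had B-lineage CTCF, and of 10 Trav13 genes, 9 had DP Rad21 and 5 had B-lineage CTCF. These counts depend on the window: sites called in all 5 lists lay 1878 bp before Trav14-3, with CTCF peaks past 2 kb, and 2233 bp before Trav14n-3, and a CTCF site lay 2079 bp before Trav13-3. DP Rad21 peaks without B-lineage CTCF at Trav13 genes had a median centre of 392 bp after the gene start, and those at 4 Trav4 genes had one of 584 bp. At Trav15 the median was 100 bp before the start (-100.0 bp). Such peaks were also found at small families of both ends, at Trav1 (5.94% and 7.56%) and Trav2 (0.122%) distally, and at Trav20 (81.3%), Trav21-dv12 (4 peaks, up to 88.8%), Trdv2-1 (34.7%) and Trdv2-2 (78.0%) near the J segments. The genes of these small families were chosen after their values were seen.

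**Figure D5:**
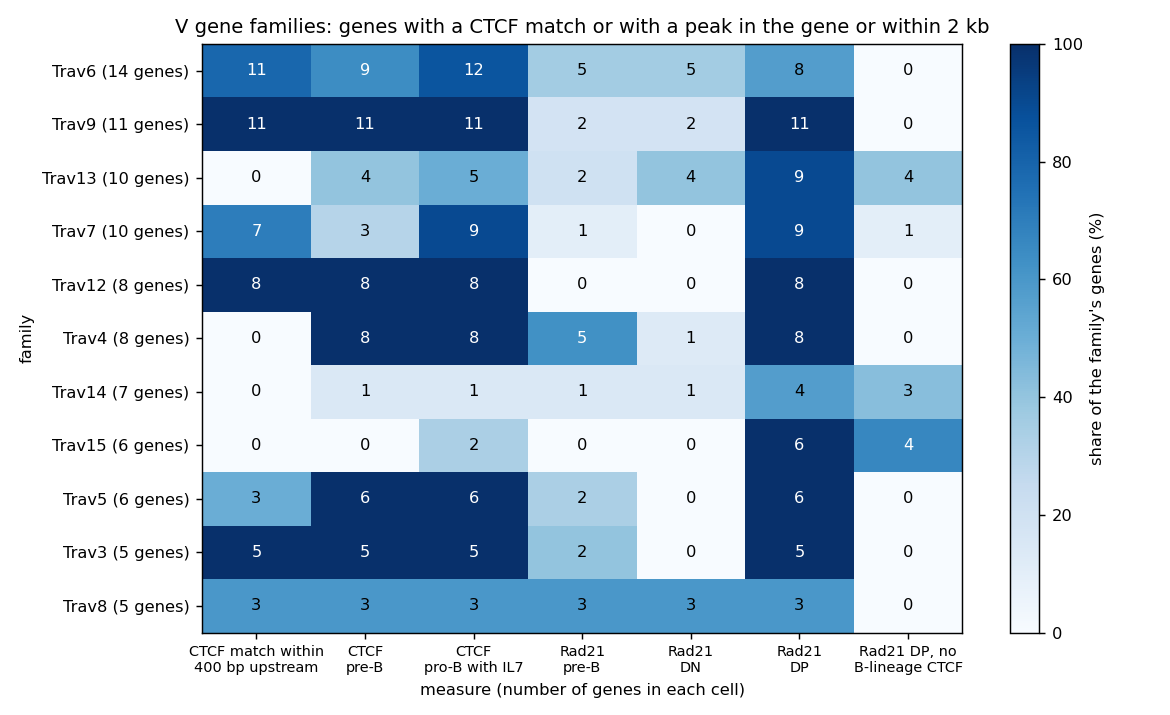
Rows are the 11 families with 3 or more annotated genes, and columns give the number of genes with a CTCF match in the 400 bp upstream, with a peak of each list in the gene or within 2 kb, or with DP Rad21 and no B-lineage CTCF there; colour is the share of the family's genes in percent. Trav9, Trav12 and Trav3 are complete for the match, both CTCF lists and DP Rad21, while Trav13, Trav14 and Trav15 have no match and hold 4, 3 and 4 genes with DP Rad21 and no B-lineage CTCF.

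Peaks were also counted by the spans of the aligned sites. These spans run from the first to the last called site that aligned to 3 places, so peaks set their edges and their density is not compared with that outside; 4 genes with a d symbol, from Trav4d-2 to Trav6d-4, lie before the first span. The 3 spans, 285, 267 and 291 kb long, held 27, 26 and 25 pre-B CTCF peaks and 34, 33 and 36 DP Rad21 peaks. Pre-B Rad21 had 12, 13 and 8 peaks in them and DN Rad21 9, 7 and 12. The 342 kb before the first copy held 7 pre-B CTCF and 11 DP Rad21 peaks, and the 231 kb after the third held 4 and 26. Of the 29 sites after the third copy, 16 were called in DP Rad21 alone.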

How the data were processed

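CTCF and Rad21 peaks of 5 libraries were used, of 9 samples described, the rest being inputs without a list here. To make the lists, the authors took out adapters and duplicates, mapped to mm9 by Bowtie (version 0.12.9 per the labels) allowing 2 mismatches, kept reads with at most 3 best places at each place, and called confident peaks per library with MACS 1.4.2 against input at an FDR of up to 1%. The deposited score of a peak grows with depth and was used to rank within a list. Depth per library is unknown, so no depth-based precision can be given. The shortest list, of DN Rad21, describes the deposited file.

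Overlap meant at least 1 shared bp. Exact Clopper-Pearson intervals are given for shares and order-statistic intervals for medians, at 95%. V genes were those of GENCODE vM1 (NCBIM37, the same assembly as mm9), renamed through RefSeq synonyms where possible. Copies were aligned with blastn 2.17.0. The motif threshold was passed by 5% of sequences 2000 bp from pre-B CTCF peaks. Named were the strongest pre-B CTCF and DP Rad21 peak per bin, up to 12 sites called in all lists, families of 3 or more genes, primer sites, edge peaks and up to 6 sets of copies. The members and lists were chosen with earlier results of these data known; the copy spans, the 400 bp window and the sequences shown by family were set after the peaks had been seen. Counting, merging, partners and word search recovered their planted values in simulated data. Other tools were samtools 1.23.1, pysam 0.24.0, matplotlib 3.10.9, scipy 1.17.1 and numpy 2.4.6 under Python 3.11.15.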

Additional observations from a re-analysis of the deposited data

How the results depend on the processing

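No paired analysis was possible because each group has 1 library. Of 130 alternative values for 44 results, 80 stayed within 1.5 times the count or within the interval of the main value and 50 moved; causes were not tested beyond the fewer peaks that a stricter limit leaves by construction. With lists limited to equal length, 43 pre-B CTCF, 25 pro-B CTCF, 3 pre-B Rad21 and 50 DP Rad21 peaks remained in the V portion, the fullest bins held 10, 7, 1 and 10, and median spacings were 21149, 32590, 347974 and 19454 bp. The order of lists then turned: pro-B CTCF had fewer and wider spaced peaks than pre-B CTCF, and pre-B Rad21 fewer than the 33 of DN Rad21. At that length the share with a partner was 32% for pro-B CTCF and 0.00% of 3 peaks for pre-B Rad21, pre-B CTCF with Rad21 fell to 6.98%, 76 sites were left, 2 of them in all lists and 11 in DP Rad21 alone, and 46, 3 and 40 V genes had B-lineage CTCF, pre-B Rad21 and DP Rad21. Without scores below 100, pre-B Rad21 had 19 peaks with 5 in its fullest bin and a median spacing of 39053 bp, pro-B CTCF a spacing of 10697 bp, pre-B CTCF with Rad21 21.3%, DP Rad21 with B-lineage CTCF 73.7% and DP Rad21 alone 31 sites. A tolerance of 200 bp gave 36.4% of pro-B CTCF peaks a partner. Windows of 1 and 5 kb gave 19 and 49 V genes with pre-B Rad21 and 13 and 40 with DN Rad21. The stricter motif threshold gave 48.9%, 33.6%, 35%, 24.2% and 28.3% with a match (pre-B CTCF, pro-B CTCF, pre-B, DN and DP Rad21) and 91.7% of pro-B CTCF matches toward higher coordinates; the 12-base consensus gave 58.0% for pro-B CTCF and 63.6% for DN Rad21. Chosen after seeing the data, a limit to peaks with at least 50% of their words at 1 place left 16, 37, 5, 10 and 39 peaks, with 53.8% of DP Rad21 at B-lineage CTCF, a match in 59.5% of pro-B CTCF and 41.0% of DP Rad21, and 92.9% of pre-B CTCF matches toward higher coordinates.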
